A study of Xenopus laevis with 31 samples.

Results

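In Xenopus laevis, the African clawed frog, 92 probe sets of an Affymetrix Xenopus array were high in the egg, lower in the gastrula and high again in the neurula. They were chosen from 15424 probe sets (0.596%) by 3 conditions on group mean levels, where a level is the log2 of the array intensity. The egg mean had to exceed that of control embryos at stage 11 by at least 1, which is 2-fold. The mean of control embryos at stage 18 had to do the same. Vegetal explants and animal caps had to differ from each other by less than 1. The egg condition alone was met by 1868 probe sets (12.1%), the stage 18 condition alone by 1902 (12.3%), and both together by 125 (0.810%). The last condition then removed 27 probe sets that were higher in the cap and 6 that were higher in the vegetal explant. These values chose the probe sets, so they are given as a description and carry no test.

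The study asked which transcripts the gastrula endoderm is rich in and how nodal signals, Mixer and Sox17 regulate them, and it holds 31 arrays in 9 groups. Unfertilized eggs (n = 3), control embryos at stage 11 (n = 9) and at stage 18 (n = 4) form the time course. Explants collected at stage 11 make up the groups animal cap (n = 3, cut at stage 9 and kept in culture), Equatorial (n = 2) and Vegetal endoderm (n = 2). The injected embryos, also taken at stage 11, received at the 2-cell stage, on the vegetal side, 1 ng of RNA for Cerberus-Short (n = 3), a Mixer morpholino at 40 ng (Mixer-MO, n = 2, 1 title of which gives a lower dose), or a mixture of Sox17 morpholinos at 20 ng each (Sox17-MO, n = 3). Each sample pooled about 20 embryos of a single mating or about 50 explants, 10 µg of total RNA was used, and no embryos injected with a control RNA or control morpholino are among the samples. The morpholinos block translation or splicing rather than remove the gene, and Cerberus-Short is given by injected RNA, so some function may remain in these groups. Nothing says which samples of a group came from different matings, so the spread between them may be technical in part.

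A frog egg is loaded with maternal messenger RNA that carries the embryo through its first cell cycles. Zygotic transcription starts at the midblastula transition, and much of the maternal RNA is cleared around that time and during gastrulation. Stage 11 lies within gastrulation, when the germ layers are set apart, and stage 18 is a neurula, in which the neural folds are closing and organs begin to form. A transcript can therefore be supplied by the mother, fall, and be made again by the embryo. Cerberus-Short binds and blocks nodal ligands, the signals that induce endoderm, and the transcription factors Mixer and Sox17 act downstream of them. In pools of whole eggs or embryos, fewer cells holding a transcript and less RNA in each cell cannot be told apart.

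The 92 probe sets had a median level of 7.00 in the egg, 5.22 at stage 11 and 6.73 at stage 18, or intensities of 128, 37.2 and 106. Over all 15424 probe sets the median level was 6.11, 6.17 and 6.09 in the same groups. The deposited values had been normalized, so these near-equal medians cannot show whether messenger RNA as a whole dipped. The dip of the 92 is therefore relative to the rest of the array. The egg exceeded stage 11 by a median of 1.47 (2.78-fold, range 1.01 to 4.20), and stage 18 exceeded it by 1.40 (2.64-fold, range 1.00 to 4.40). The medians of these differences over all probe sets were 0.05 and 0.04. At stage 11, 74 of the 92 lay below the median level of the array, and 2 lay below 2.81, the mean 5th percentile of the control arrays. The files do not pair probe sets with gene names and 0 of them could be matched to a gene here, so the probe sets are named by their identifiers, and neither gene roles nor sequences were analysed. The number after Xl. marks the cluster a probe set was designed from. The 92 came from 78 clusters: cluster Xl.693 gave 14 of them, Xl.1169 gave 2, and every other cluster gave 1.

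**Figure D1:**
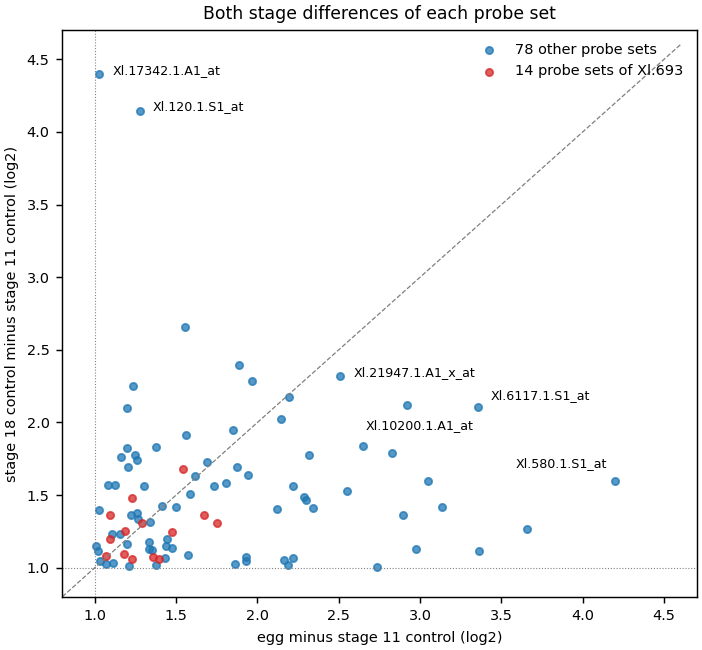
Each point is 1 of the 92 probe sets, with egg minus stage 11 on the x axis and stage 18 minus stage 11 on the y axis (differences of mean log2 intensity). The dotted lines are the minimum of 1 set by the selection and the dashed line marks equal differences. In most points the smaller of the 2 differences is under 1.5, and Xl.580.1.S1_at (4.20 and 1.60) and Xl.17342.1.A1_at (1.03 and 4.40) lie at opposite ends.

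In most of the 92 the smaller of the 2 differences stayed under 1.5. It reached 2 in 5 probe sets and 1.5 in 25, and it was under 1.1 in 26. Just inside the limits lay Xl.12345.1.A1_at, with differences of 2.74 and 1.00, Xl.12128.1.S1_at, with 1.01 and 1.15, and Xl.5481.1.S1_s_at, with 1.21 and 1.01. Just outside lay Xl.15795.1.A1_at (0.987 and 1.40), Xl.5082.1.A1_at (2.46 and 0.987) and Xl.23696.1.S1_at (0.986 and 2.21). The edge of the set is therefore a cut through a continuous range and not a gap.

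Whether the groups overlapped was counted array by array. Every egg array lay above every stage 11 control array for 82 of the 92 probe sets, against 14.7% of all probe sets. Every stage 18 array did so for 57 (12.0% of all), and both held for 54 (1.23% of all). Taken singly, 77, 80 and 79 of the 92 were at least 1 above the stage 11 mean on the 3 egg arrays, and 58, 72, 60 and 78 on the 4 stage 18 arrays. On all 3 egg arrays 59 of the 92 were that far above (8.84% of all), and on all 4 stage 18 arrays 30 (6.47% of all). All 7 of these arrays reached that distance for 19 of the 92 (0.201% of all). The median SD among stage 18 arrays was 0.48 for the 92 and 0.41 for all probe sets, and among egg arrays 0.27 and 0.19. Since the selection used these same arrays, and the groups differ in size, nothing is read from the shares.

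The deepest dip on both sides was that of Xl.21947.1.A1_x_at. Its level was 7.43, 7.08 and 6.88 in the eggs, between 4.11 and 5.09 (median 4.68) at stage 11, and 6.12, 8.00, 6.30 and 7.32 at stage 18. All 7 egg and stage 18 arrays lay above all 9 stage 11 controls, by 5.70-fold and 4.98-fold in the means. Xl.6104.1.A1_at followed, with 7.51, 7.17 and 7.13 in the eggs, 3.91 to 5.96 (median 5.09) at stage 11, and 6.01, 7.76, 7.23 and 8.00 at stage 18. Its lowest stage 18 array was only just above the highest stage 11 array. Xl.6117.1.S1_at was at 8.95, 9.00 and 8.75 in the eggs, between 4.87 and 6.20 (median 5.55) in the stage 11 arrays, and stood at 7.31, 7.67, 7.53 and 8.10 at stage 18. Its groups did not overlap, and its egg mean was 10.2-fold and its stage 18 mean 4.31-fold above stage 11. Xl.6468.1.S1_at had 8.54, 8.00 and 8.23 in the eggs, 5.62 to 6.78 (median 5.93) at stage 11, and 8.18, 7.44, 8.26 and 8.63 at stage 18, again without overlap.

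Others among the 20 largest returned to or towards their egg level. For Xl.15310.1.A1_at the egg arrays read 7.57, 7.64 and 6.80, stage 11 ran from 5.20 to 5.86 (median 5.41), and stage 18 read 7.43, 8.35, 7.39 and 8.19. For Xl.472.1.S1_at the eggs were at 9.56, 9.33 and 9.60, stage 11 at 6.61 to 7.68 (median 7.23), and stage 18 at 8.82, 8.82, 8.83 and 9.35. For Xl.4586.1.A1_at the values were 8.04, 8.90 and 8.37 in the eggs, 5.94 to 7.36 (median 6.94) at stage 11, and 8.02, 8.25, 8.74 and 8.80 at stage 18. In these 3 the stage 11 arrays formed the low group throughout, with no overlap on either side. Xl.23161.1.S1_at read 8.54, 8.01 and 8.20 in the eggs, 5.20 to 6.18 (median 5.64) at stage 11, and 7.26, 7.79, 7.31 and 7.38 at stage 18. Its neurula values were close to each other and lay between the gastrula and egg values. Xl.6002.1.A1_at, a dimmer probe set, read 6.80, 6.48 and 6.86, then 4.61 to 5.33 (median 4.95), then 6.47, 6.18, 6.75 and 6.56.

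In some of the 20, single arrays set the size of a difference. Xl.662.1.S1_at read 6.23, 6.93 and 6.89 in the eggs and 3.55 to 5.29 (median 4.68) at stage 11. At stage 18 it read 7.41, 7.43 and 7.49 on 3 arrays and 5.69 on replicate 2. That array was the low one, below the egg mean. Xl.21446.1.S1_at was uneven at stage 18, with 4.83, 5.07, 6.09 and 7.33, and read 3.68 to 4.54 (median 4.10) at stage 11 and 5.59, 5.53 and 6.26 in the eggs. The lowest levels of the 20 were those of Xl.799.1.S1_at, at 4.17, 4.05 and 4.36 in the eggs, 2.11 to 2.85 (median 2.39) at stage 11 and 2.43, 6.94, 3.67 and 3.04 at stage 18. Its stage 18 difference rested on replicate 2, and without that array it was 0.59 in place of 1.56. The other 8 of the 20 had a smaller difference of 1.56 to 2.12. Among them Xl.5802.1.A1_x_at was at 5.25, 5.69 and 5.26 in the eggs, 2.90 to 4.63 (median 3.21) at stage 11 and 5.92, 4.71, 5.82 and 5.52 at stage 18.

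**Figure D2:**
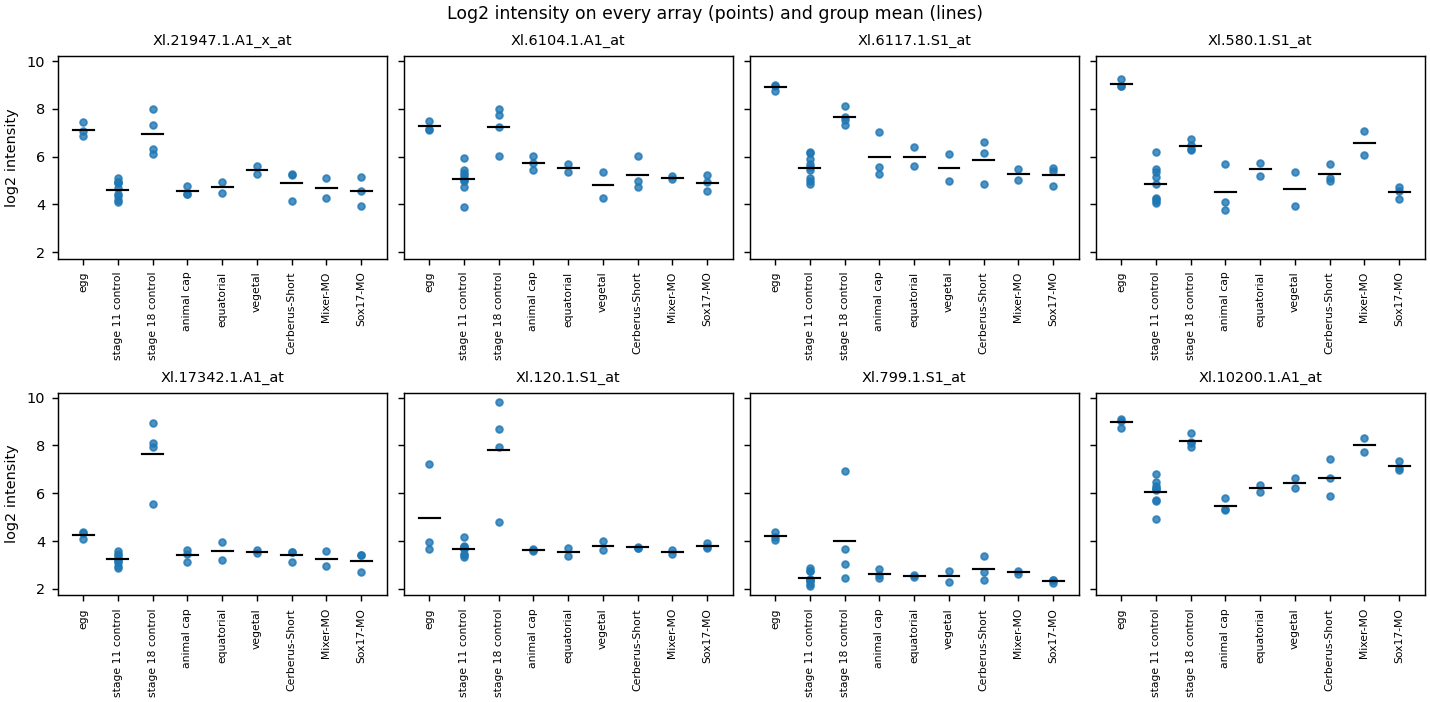
Log2 intensity (y axis) of 8 probe sets on each of the 31 arrays (points), by group (x axis), with group means as lines. Xl.21947.1.A1_x_at, Xl.6104.1.A1_at and Xl.6117.1.S1_at have higher means in the egg and at stage 18 than in every stage 11 group, while Xl.120.1.S1_at is high on 1 egg array and Xl.799.1.S1_at on 1 stage 18 array. Xl.10200.1.A1_at is the probe set that was higher in Mixer-MO embryos.

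The return at stage 18 was close to the egg level for most of the set, with a median of -0.14 for stage 18 minus egg (range -2.60 to 3.37). Stage 18 lay within 0.5 of the egg for 58 of the 92 (63.0%), against 36.5% of all probe sets, and within 1 for 74 (57.9% of all). Asking for both differences to be at least 1 places both stages above the same gastrula value, so some closeness follows from the selection and no test is given. Stage 18 was at least 1 below the egg in 14 (22.6% of all) and at least 1 above it in 4 (19.4% of all).

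The 14 that came back only in part included the 4 largest egg differences, those of Xl.580.1.S1_at, Xl.6185.1.A1_at, Xl.24749.1.A1_at and Xl.6117.1.S1_at, the last of which is described above. Xl.580.1.S1_at read 9.26, 8.97 and 8.95 in the eggs, 4.05 to 6.19 (median 4.87) at stage 11 and 6.31, 6.27, 6.74 and 6.50 at stage 18. Its egg mean was 18.4-fold above stage 11 and its stage 18 mean 3.02-fold, and the lowest stage 18 array exceeded the highest gastrula array by little. Xl.6185.1.A1_at read 9.46, 8.91 and 8.88 in the eggs, 4.74 to 6.43 (median 5.35) at stage 11, and 6.60, 5.38, 7.20 and 7.58 at stage 18. Its stage 18 replicate 2 lay close to the gastrula median, and the other 3 lay above every gastrula array. Xl.24749.1.A1_at read 7.79, 7.38 and 7.62 in the eggs, 3.78 to 5.36 (median 4.06) at stage 11 and 5.44, 5.83, 5.00 and 5.10 at stage 18, which overlaps the highest gastrula array. Xl.2845.1.A1_at, with a smaller egg difference of 3.05, had 8.38, 8.75 and 8.44, then 4.89 to 6.36 (median 5.32), then 7.52, 6.88, 6.56 and 7.34.

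The 4 that went above the egg were carried mainly by the neurula. Xl.17342.1.A1_at read 4.07, 4.34 and 4.39 in the eggs, 2.86 to 3.58 (median 3.23) at stage 11 and 5.56, 8.92, 7.93 and 8.12 at stage 18. The stage 18 mean was 10.3-fold above the egg mean, and the egg mean, though above every gastrula array, was itself low. Xl.120.1.S1_at read 7.22, 3.67 and 3.95 in the eggs, 3.35 to 4.15 (median 3.72) at stage 11 and 4.80, 9.82, 7.95 and 8.70 at stage 18. Its egg difference of 1.28 came from egg replicate 1 and was 0.14 without it, since the other 2 egg arrays lay within the gastrula range. Xl.1596.1.A1_at read 6.97, 7.62 and 5.55, then 4.75 to 5.60 (median 5.15), then 7.47, 8.00, 8.07 and 7.73, with 1 egg array inside the gastrula range. Xl.24971.1.S1_at, named here after its values were seen as the last of the 4, read 6.99, 7.82 and 7.11, then 5.42 to 7.05 (median 6.07), then 8.10, 8.50, 8.25 and 8.45.

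The 31 arrays had median intensities from 65.6 to 77.3, and no 2 were identical. Stage 18 replicate 2 stood apart. Its correlation with the stage 11 mean over all probe sets was 0.759, against 0.84 to 0.88 on the other stage 18 arrays. Its log2 spread from the 5th to the 95th percentile was 5.78, against 6.65 to 6.87 on those arrays. The array carries probe sets at both ends of the beta-actin transcript, and the 3' minus 5' difference, a sign of RNA or labelling quality, was 0.38 on replicate 2 and -2.45 to -2.03 on the other 3. For GAPDH the same difference did not set replicate 2 apart, at 3.38, 3.60, 3.44 and 1.84 on stage 18 replicates 1 to 4. The GAPDH group means were 3.06 ± 0.82 (SD, n = 4) at stage 18, 2.40 ± 0.69 (n = 9) in the stage 11 controls and 2.09 ± 0.21 (n = 3) in the eggs, so this sign was higher in the stage 18 group along with the 92. Replicate 4, with the lowest GAPDH difference of the 4, had 78 of the 92 at least 1 above stage 11, the most of any stage 18 array. With stage 18 replicate 2 left out, 68 of the 92 kept a stage 18 difference of at least 1, with a median of 1.29 over the 92. The part of RNA quality in the stage 18 values was not tested. Without replicate 2 the stage 18 difference fell below 0.5 in Xl.13894.1.A1_at, from 1.18 to 0.40. That probe set was named after its values were seen. Of the 21 arrays that enter the selection, any 1 could be left out for 32 of the 92 without ending their membership, among them Xl.580.1.S1_at, Xl.6117.1.S1_at, Xl.6468.1.S1_at and Xl.15310.1.A1_at.

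The titles also carry a letter that recurs across groups and whose meaning the labels do not give. Over all probe sets, deviations from the group mean correlated at 0.517 to 0.852 in 7 of 7 pairs of an injected and a control array with the same letter. Among explants, Vegetal replicate 2 and Equatorial replicate 1 share the letter H, and theirs correlated at -0.0104. With n = 2 in both groups the deviations within a group mirror each other, so this value cannot show whether the letter matters among explants. All 3 egg arrays carry the letter L and no other array does, so egg and letter cannot be told apart. Stage 18 and stage 11 share the letters F and G. Within F (stage 18 replicates 1 and 2 against control replicate 9) the stage 18 difference was above 0 for 92 of the 92, with a median of 1.29. Within G (replicate 3 against control replicate 5) it was above 0 for 85 of the 92, with a median of 1.56. The exceptions all belonged to Xl.693. The arrays compared within F and G also entered the selection, so values above 0 follow in part from it. These counts are a description only.

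The 14 probe sets of Xl.693 come from the same cluster, so they are not 14 independent genes. All 14 are sense probe sets whose suffix, _x_at or _a_at, marks probes that may pick up other transcripts as well. Of the 23 tested probe sets of the cluster, 18 are sense and 5 antisense. Over all 23 the egg difference ran from 0.24 to 1.75 and the stage 18 difference from 0.39 to 1.68, so the 14 are the upper part of 1 family. Their levels were low, with medians of 5.34 in the egg, 3.99 at stage 11 and 5.24 at stage 18.

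Their stage 18 values did not repeat between arrays. The median of the 14, relative to stage 11, was 0.95, 2.57, -0.06 and 1.38 on stage 18 replicates 1 to 4 (SD 1.09, n = 4), while the other 78 gave 1.18, 1.47, 1.54 and 1.60 (SD 0.19). On the eggs the 14 gave 1.27, 1.16 and 1.39. Every egg array was above every gastrula array for 13 of the 14, and every stage 18 array for 0 of the 14. Without stage 18 replicate 2, 4 of the 14 kept a stage 18 difference of at least 1 (median 0.71), against 64 of the other 78 (median 1.43). Within letter G their median stage 18 difference was 0.03, with 7 of 14 above 0, and within letter F it was 1.49.

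The same 14 also moved between arrays of 1 stage. Among the 9 stage 11 controls their median ran from -0.80 to 0.47, against -0.18 to 0.24 for the other 78. The lowest control, replicate 7, and the lowest injected array, Mixer-MO replicate 2 at -0.90, share the title letter J. Their GAPDH 3' minus 5' differences were 3.90 and 3.60, where the 9 controls averaged 2.40 ± 0.69 (SD), and their beta-actin differences were 0.90 and 1.49, where the controls averaged -2.19 ± 1.48. These signs did not go with a low Xl.693 median on every array. Stage 18 replicate 2 (GAPDH 3.60, beta-actin 0.38) had the highest Xl.693 median of all arrays, 2.57. Cerberus-Short replicate 2 (3.15 and 0.43) and control replicate 9 (3.04 and -0.39) had medians of 0.16 and 0.29. Vegetal replicate 2 (2.75 and 1.70) had -0.47. The part of RNA quality or of the letter in the Xl.693 values was not tested.

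**Figure D3:**
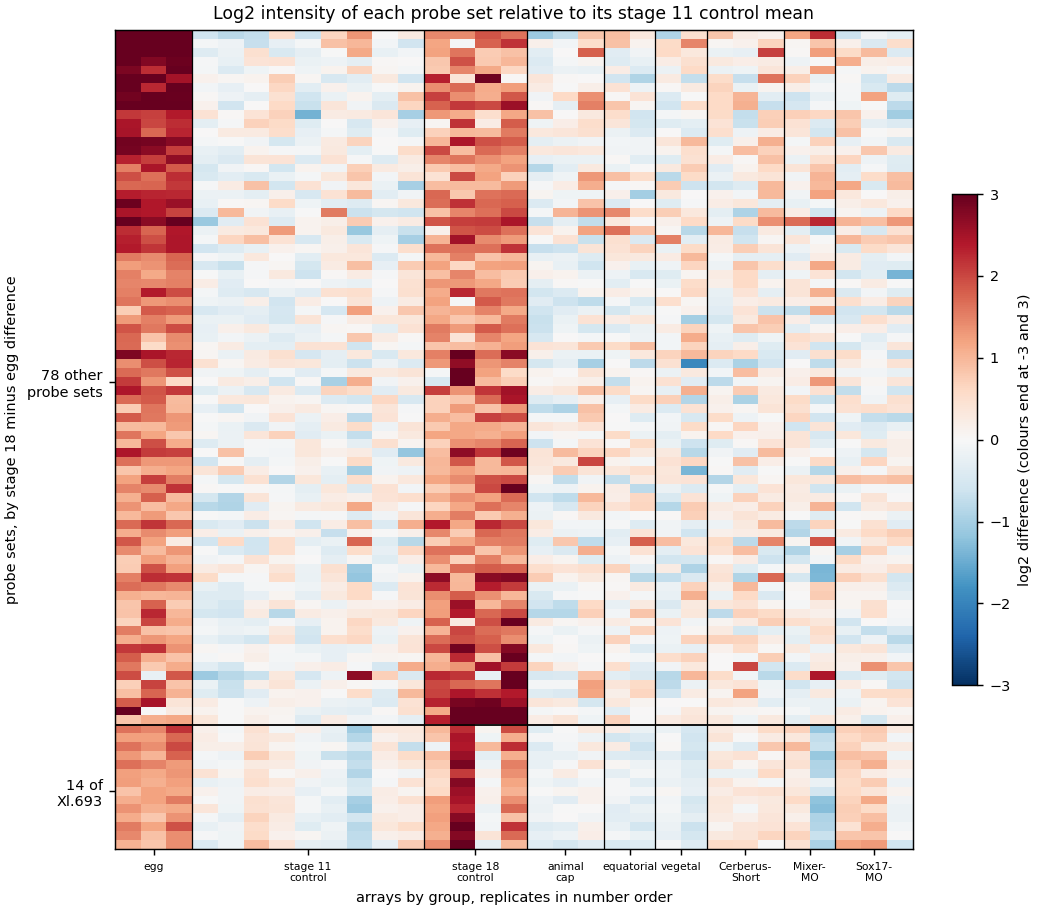
Rows are the 92 probe sets and columns the 31 arrays, coloured by log2 intensity minus the row's stage 11 control mean (colours end at -3 and 3). The 78 probe sets outside Xl.693 are ordered from those that returned least at stage 18 to those that stood furthest above the egg, and the 14 of Xl.693 are below the line. Egg and stage 18 columns are high in most rows, and the other columns show no such block of high values.

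**Figure D4:**
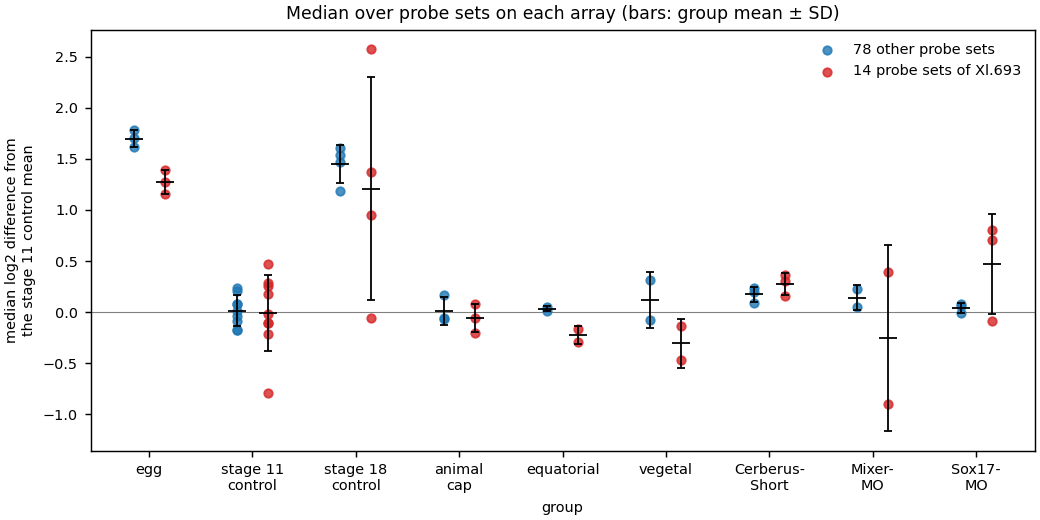
Each point is 1 array, and the y axis is the median log2 difference from the stage 11 control mean over 78 probe sets (blue) or over the 14 of Xl.693 (red). Bars are group mean ± SD. The 4 stage 18 arrays lie between 1.18 and 1.60 for the 78 and between -0.06 and 2.57 for Xl.693.

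The remaining 15 arrays were also taken at stage 11, and 10 of them, from Equatorial explants and injected embryos, had no part in the selection. On all 15, the level was below both the egg mean and the stage 18 mean for 74 of the 92 (1.97% of all probe sets). In group means, all 92 were below both in the animal cap, Equatorial, Vegetal, Cerberus-Short and Sox17-MO groups, and 90 of the 92 in Mixer-MO. The egg and stage 18 means were selected to be high and the caps and Vegetal explants (5 of the 15 arrays) entered the selection, so these counts are a description only.

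Explants stayed close to whole gastrulae for the 92, as they did for most probe sets of the array. The number within 1 of the stage 11 control mean was 92 of the 92 for animal cap (95.4% of all probe sets), 91 for Equatorial (98.7%) and 91 for Vegetal (90.1%). The selection bounded the difference between Vegetal and cap, so the small differences among explants are partly built in. Vegetal minus cap still ran from -0.9999 to 0.946 over the 92. Xl.662.1.S1_at (-0.970), Xl.6104.1.A1_at (-0.930) and Xl.10200.1.A1_at (0.946) came close to the bound. Equatorial against animal cap gave 0 calls among the 92 in limma at an adjusted p under 0.05 and at least 2-fold (0.784% of all), and 4 had an unadjusted p under 0.05 (6.10% of all). The differences ran from -0.88 in Xl.7521.1.A1_at (named after its values were seen, as the lowest) to 0.94 in Xl.580.1.S1_at, around a median of 0.01. Vegetal against Equatorial also gave 0 calls (4.75% of all), with 4 at an unadjusted p under 0.05 (19.0% of all), and differences from -1.63 to 0.77. At least 2-fold differences made up 1.09% of the 92 and 13.8% of all probe sets.

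In the tested explant contrasts the only difference of at least 2-fold was that of Xl.4309.1.A1_at, which was named after its values were seen. It read 6.48 and 5.67 in Equatorial explants, 4.89 and 3.99 in Vegetal explants, and 5.22, 4.92 and 6.03 in caps. The Vegetal minus Equatorial difference of -1.63 had an adjusted p of 0.135 in limma. With the title letter as a fixed or random block, Xl.4309.1.A1_at and Xl.7704.1.S1_at were called, both lower in the Vegetal explants. Those fits called 1345 and 1508 of all 15424 probe sets. Xl.7704.1.S1_at, the brightest of the set at stage 11 and also named after its values were seen, read 9.21 and 9.36 in Equatorial explants and 9.20 and 7.51 in Vegetal explants, so that 1 of the Vegetal arrays was low.

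Injected embryos were compared with the 9 controls, which the selection also used, so that a set chosen for low control values can lie above 0 through the selection. The number within 1 of the controls was 92 of the 92 for Cerberus-Short (99.1% of all probe sets), 89 for Mixer-MO (96.4%) and 91 for Sox17-MO (98.3%). At an adjusted p under 0.05 limma called 0 of the 92 in Cerberus-Short embryos (0.305% of all), 1 in Mixer-MO (0.0324%) and 0 in Sox17-MO (0.953%). At an unadjusted p under 0.05 there were 4 (2.07% of all), 6 (8.10%) and 6 (8.20%). The median difference from the controls was 0.22 for Cerberus-Short, 0.04 for Mixer-MO and 0.13 for Sox17-MO, against 0.01, -0.01 and 0.04 over all probe sets. In Sox17-MO embryos it was 0.48 for the 14 of Xl.693 and 0.07 for the other 78. The same medians were -0.24 and 0.07 in Mixer-MO, and 0.27 and 0.20 in Cerberus-Short.

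The Cerberus-Short shift was small. It was above 0 for 75 of the 92 (14 of the 14 of Xl.693 and 61 of the other 78), where the median over all probe sets was 0.01. The differences ran from -0.64 in Xl.25185.1.A1_at to 0.60 in Xl.10200.1.A1_at, and 0 of the 92 reached 2-fold (0.901% of all). By array, the median over the 92 was 0.14, 0.19 and 0.26, while the controls ran from -0.16 to 0.23, so the groups overlapped. Fitted with a fixed term for each title letter, the median shift was 0.10.

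The called probe set was Xl.10200.1.A1_at. It read 9.03, 8.75 and 9.11 in the eggs, 4.94 to 6.80 (median 6.18) in the stage 11 controls and 7.92, 8.11, 8.14 and 8.51 at stage 18. In Mixer-MO embryos it read 7.72 and 8.32, above all 9 controls, with 1 array inside the stage 18 range and 1 just below it. The difference from control was 1.97 with a standard error of 0.334 (limma, adjusted p = 0.0165 over 15424 probe sets). Sox17-MO embryos read 7.06, 6.95 and 7.36, also above all controls, with a difference of 1.08 (adjusted p = 0.0731 in limma). Cerberus-Short embryos read 5.90, 6.63 and 7.42, which overlap the controls. The caps were at 5.36, 5.78 and 5.32, and the other explants at 6.05 to 6.65. The Mixer-MO call was lost when either Mixer-MO array was left out, which leaves 1 array in the group. Over the fits without single arrays the difference ran from 1.67 to 2.27. The call was also lost in a limma fit of the compared groups alone (adjusted p = 0.168), which called 0 of all 15424 probe sets. With a fixed term for each title letter it was lost too (difference 1.52), in a fit that again called 0 of all 15424. Mixer-MO replicate 1 carries no letter, so that difference rests on replicate 2 and control replicate 7, which share the letter J. The difference stayed between 1.52 and 2.53 over 19 alternatives, whose adjusted p ran from 0.00245 to 1.0.

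Differences between the injected groups use no array of the selection, but all 31 arrays enter the estimate of spread behind their p-values. Fitted on the compared groups alone, each of the 3 comparisons called 0 of all 15424 probe sets. Limma called 0 of the 92 between Cerberus-Short and Mixer-MO (0.207% of all), 0 between Cerberus-Short and Sox17-MO (0.473%) and 0 between Mixer-MO and Sox17-MO (0.765%). At an unadjusted p under 0.05 the numbers were 7 (9.54% of all), 8 (6.76%) and 11 (13.2%). At this threshold the share among the 92 was a little above the array's own between Cerberus-Short and Sox17-MO, and a little below it in the others. The widest difference was that of Xl.580.1.S1_at, at 6.05 and 7.07 in Mixer-MO and 4.24, 4.74 and 4.58 in Sox17-MO, or 2.04 (adjusted p = 0.0737 in limma). The Mixer-MO arrays lay above the Sox17-MO arrays without overlap, and 1 of them above all controls. Xl.580.1.S1_at was called, with Mixer-MO higher, when the replicate number was added as a block, but these numbers were not shown to pair the samples. It was not called in the fits that took the title letters into account. Its higher Mixer-MO array (replicate 2, 7.07) and its highest control (replicate 7, 6.19, control median 4.87) both carry the letter J. The part of the letter in this difference was not tested. Xl.662.1.S1_at had the lowest difference, at -1.15, with 4.19 and 3.38 in Mixer-MO and 5.42, 5.20 and 4.18 in Sox17-MO, and these overlapped.

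**Figure D5:**
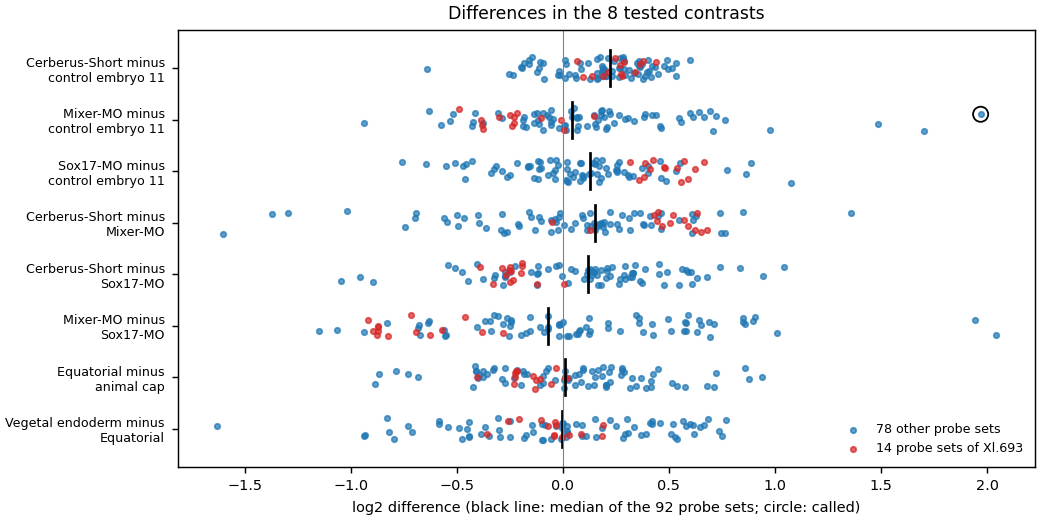
Log2 differences (x axis) of the 92 probe sets in the 8 tested contrasts, with 14 of Xl.693 in red, the median as a black line and the called probe set circled. The medians lie between -0.07 and 0.22, and the circled point is Xl.10200.1.A1_at at 1.97.

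The names carry little else that sets the 92 apart. Sense probe sets made up 54.3% of them and 45.2% of all tested, but 46.2% of the 78 outside Xl.693. The suffix _x_at was on 14.1% of the 92, 3.56% of all and 2.56% of the 78, so its excess came from Xl.693. The suffix _s_at, which marks probes shared between transcripts, was on 5 of the 92 (5.43%) and 2.20% of all. The 2 probe sets of Xl.1169 followed the same course, with Xl.1169.1.S1_at at 7.85, 8.83 and 7.98 in the eggs, 6.49 to 7.35 (median 6.85) at stage 11 and 7.57, 8.25, 8.34 and 8.63 at stage 18. Xl.1169.1.S1_s_at read 8.53, 9.95 and 8.68, then 6.85 to 8.31 (median 7.92), then 8.93, 10.05, 9.40 and 9.66. Both were named after their values were seen, as the only other cluster with more than 1 member. Their identifiers give the same sequence within the cluster (1169.1), so they are not 2 independent genes.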

How the data were processed

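The deposited intensities, linear and 1 per probe set and array, were made by the authors with RMA, per the submitters' processing notes, and with GeneSpring 7.1 and GeneChip Operating Software 1v4, per the deposited checklist. Values of 1000 or more had been written 1000-fold too low, through a misplaced decimal point, so that none exceeded 999.9. The written form settled 438140 of 483941 values (90.5%), and 45181 were assigned to the nearest settled value of their probe set. Of 5101 settled values hidden as a check, 5095 were recovered. In probe sets holding both low values and values above 1000, where an assignment can go wrong, 75 of 80 were. The 20 probe sets with only open values were left as written. Of the 92 probe sets, 18 hold an assigned value. Of 15611 probe sets, 120 controls and 67 others with an undecided value were left out, and 15424 remained. Group means of log2 intensity on all 31 arrays were estimated in limma 3.58.1 (R 4.3.3; lmFit, then eBayes; two-sided tests; 22 residual degrees of freedom), and p-values were adjusted over all 15424 by Benjamini-Hochberg. Explant contrasts also required 2-fold. The fit was tested on simulated data, with every array drawn independently. That test therefore does not cover the correlation between arrays that share a title letter.

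The members, lists and tests were chosen with earlier results of these data known. Named probe sets are the 20 with the largest smaller difference (1 per cluster), the 3 nearest inside and 3 nearest outside the limits, those called, and the 3 highest and 3 lowest in stage 18 minus egg. Others are marked as named after their values were seen. Gene lists could not be used, because 0 probe sets matched a gene. Residuals of same-numbered Cerberus-Short and Sox17-MO arrays correlated at 0.670, 0.272 and 0.333, and only the pair at 0.670 shares a title letter. The reported fits hold no block. With the replicate number as a block, the fit of this contrast also called 0 of the 92, and 83 of all probe sets. The number of arrays limits the precision.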

Additional observations from a re-analysis of the deposited data

Results flagged for a closer look

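Single arrays stood far from the rest of their group, by Dixon's ratio of the gap to the range at its 95% critical value, in 5 of 62 groups of values looked at, and chance flags about 1 in 20 groups. For Xl.662.1.S1_at, 1 stage 11 control array was low at 3.55 (group median 4.68), and stage 18 replicate 2 was low at 5.69 (group median 7.42). For Xl.25185.1.A1_at, stage 18 replicate 2 was high at 9.43 (group median 8.19). For Xl.472.1.S1_at, stage 18 replicate 4 was high at 9.35 (group median 8.83). For Xl.12345.1.A1_at, 1 stage 11 control array was high at 3.89 (group median 3.16). In 2 of the 3 stage 18 cases the array was replicate 2, which stood apart over the whole array too.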

How the results depend on the processing

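The set held 92 probe sets as reported and 51 on the log2(intensity + 16) scale, of which 46 were among the 92. It held 102 after quantile normalization (81 shared), 74 without probe sets with an assigned value, 94 with stage 18 compared within title letters (68 shared), and 77 to 102 when single arrays were left out. An alternative chosen after seeing the data, with open values set from the median of the probe set, gave 95 (92 shared). For the 28 named members, 0 of 812 stage differences under alternatives reversed, where the selection on these differences left little room for a reversal. Of them 12 moved by more than the replicate SD, all 12 with the pseudocount, which shrinks differences of low intensities by its construction. An outlying array widens that SD. The egg difference of Xl.120.1.S1_at (1.28, lowest 0.14) and the stage 18 difference of Xl.799.1.S1_at (1.56, lowest 0.59) therefore did not count as moved. Depth has no meaning for arrays, and because background signal was not measured against the probe sets here, folds at low levels are of uncertain size.

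Mixer-MO against control gave 1 call as reported, 2 with the replicate block (Xl.580.1.S1_at added), 0 with the letter as a fixed block, 0 in the compared groups alone, and 0 to 1 without single arrays. Sox17-MO against control gave 0 as reported, 1 (Xl.10200.1.A1_at) after quantile normalization, 1 with the replicate block, 2 with the letter as a random block, and 0 to 1 without single arrays, the 1 without control replicate 7. Cerberus-Short against Mixer-MO gave 0 to 1 without single arrays, the 1 without Cerberus-Short replicate 3. Mixer-MO against Sox17-MO gave 1 after quantile normalization (Xl.11476.1.S1_at, lower, named after its values were seen) and 1 with the replicate block. Vegetal against Equatorial gave 2 with the letter as a fixed or random block and 0 to 1 without single arrays, the 1 without Vegetal replicate 1. The cause of these changes was not tested. Cerberus-Short against control, Cerberus-Short against Sox17-MO and Equatorial against cap gave 0 under every alternative run. The replicate numbers were not shown to pair the samples. Outside Cerberus-Short against Sox17-MO, correlations of same-numbered residuals ran from -0.481 to 0.457. Those of injected and control arrays with the same title letter ran from 0.517 to 0.852.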
